A study of Mus musculus with 26 samples.

Results

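Mitochondrial ribosomal protein genes were followed in mouse S49 T lymphoma cells treated with 8-CPT-cAMP, a cell-permeable cAMP analog that activates protein kinase A. The members were all genes on the array with a probe set whose only annotated symbol starts with Mrpl or Mrps and a digit, and each was read from its brightest probe set. There were 74 such genes among 12393 named genes, 47 with an Mrpl and 27 with an Mrps symbol, with 127 of the 22626 probe sets. All 74 passed the filter on dim probe sets (log2 intensity of 5 or more on at least 3 arrays), and the lowest member value on any array was 6.84 on the log2 scale, so none was close to the filter.

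The arrays were Affymetrix expression arrays, 1 per RNA sample and 26 in all. D- cells, the deathless variant line, were untreated (4 arrays) or treated for 2, 6 or 24 h (3 arrays each), and WT (wild-type) S49 cells were untreated (4 arrays) or treated for 2, 6 or 24 h (3 arrays each). All treated groups carry the same agent at a labelled dose of 100 mM, which may be a unit error. WT S49 cells are known to arrest and die when cAMP rises, whereas D- cells arrest without dying; whether the D- line is a single clone is not stated. Replicates are called biological in the labels, with nothing said of how the cultures were kept apart, and the p-values here rest on the spread among these arrays alone, which may be partly technical. In such bulk RNA, fewer cells with a transcript and less of it per cell cannot be told apart.

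Mitochondria have their own ribosome, which translates the few proteins encoded by mitochondrial DNA, all of them core subunits of the respiratory chain and of ATP synthase. Its RNAs are mitochondrial, but every protein is encoded in the nucleus, made in the cytosol and imported. Some of these proteins have counterparts in the bacterial ribosome and others occur only in mitochondria. In growing lymphocytes the supply of mitochondrial ribosomes is known to rise with cell growth, and the transcription factors Nrf1, the ETS factor Gabpa and Myc are among those known to act on nuclear genes for mitochondrial proteins.

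The arrays fell into clusters that the labels do not name. By the sign of the first axis of deviations from the group means, which held 38.8% of the variance within groups, replicates 1 and 2 of both untreated groups and replicate 1 of every treated group formed a smaller cluster of 10 arrays, and the other 16 formed a larger one. Members differed between the clusters: 73 of 74 were higher in the smaller cluster after group means were removed, by a median of 0.26 (log2). The Gapdh 3′ minus 5′ probe set difference, a sign of RNA integrity, was -0.15 ± 0.058 (SD, n = 10) in the smaller and 0.018 ± 0.094 (SD, n = 16) in the larger cluster. By group it was -0.093 ± 0.142 in D- cells at 24 h, against -0.038 ± 0.084 in untreated D- cells, and 0.096 ± 0.195 in WT cells at 24 h, against -0.053 ± 0.147 in untreated WT cells (SD, n = 3 and 4 in each line). Their part in the results was not tested, and values within each cluster are therefore given beside the main results. Of the cell type markers, all 9 T cell genes on the array were above log2 5 on average (7.31 to 12.39), as were 1 of 4 B cell (Cd79a), 1 of 5 myeloid (Csf1r), 0 of 2 erythroid and 1 of 5 stromal markers (Vim). The mean log2 level over the T cell list was 11.08 to 11.53 in D- cells at 24 h, against 11.44 to 11.54 in untreated D- cells, and 9.99 to 10.26 in WT cells at 24 h, against 10.89 to 11.06 in untreated WT cells. At 6 h it was 9.97 to 10.17 in D- cells and 9.39 to 9.78 in WT cells. Its genes went both ways: in WT cells at 24 h 4 were called higher (Cd3d, Cd3e, Cd3g and Zap70) and 4 lower, with a median change of -0.14, and Ptcra and Rag1, made by immature T cells, changed most (-4.72 ± 0.47 and -4.43 ± 0.27, limma). The myeloid list moved less, from a low level: 4.06 to 4.5 in D- cells at 24 h, against 3.92 to 4.25 in untreated D- cells, and 4.14 to 4.6 in WT cells at 24 h, against 3.95 to 4.05 in untreated WT cells. Within it Itgam averaged 5.84 ± 1.03 (SD) in D- cells at 24 h, against 4.42 untreated. In WT cells it averaged 6.24 ± 1.03 (SD), against 4.05 untreated. Csf1r averaged 5.7 against 5.74 in D- cells and 5.68 against 5.83 in WT cells, and Cd68, Lyz2 and Mpo did not pass the filter. The stromal list lay at 5.3 to 5.34 in D- cells at 24 h, against 5.03 to 5.31 in untreated D- cells, and at 5.73 to 5.86 in WT cells at 24 h, against 5.09 to 5.49 in untreated WT cells. At 6 h it stood highest, at 5.63 to 5.93 in D- cells and 6.14 to 6.2 in WT cells, when Vim averaged 14.17 in D- cells, against 11.68 in untreated D- cells, and Pdgfrb 6.42 in WT cells, against 3.52 in untreated WT cells (both named after their values were seen). The part of these markers in the members' changes was not tested.

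Promoters are shown of the 5 members with the greatest falls at 24 h in WT cells that have an entry in the table used, and of Mrpl24, which rose at 24 h in both lines. Each sequence is the 250 bases before the annotated start, from RefSeq on mouse build GRCm38.p6, written 5′ to 3′ on the gene's strand. Capitals mark the NRF1 motif (GCGCA, any base, then GCGC), bound by Nrf1, and the ETS motif CCGGAAG, found on either strand. The windows lie at chr17:35916441-35916690 on the minus strand (Mrps18b), chr11:120484387-120484636 on the plus strand (Mrpl12), chr3:32736756-32737005 on the minus strand (Mrpl47), chr9:98601680-98601929 on the minus strand (Mrps22), chr7:105811088-105811337 on the minus strand (Mrpl17) and chr3:87919294-87919543 on the plus strand (Mrpl24).
Mrps18b: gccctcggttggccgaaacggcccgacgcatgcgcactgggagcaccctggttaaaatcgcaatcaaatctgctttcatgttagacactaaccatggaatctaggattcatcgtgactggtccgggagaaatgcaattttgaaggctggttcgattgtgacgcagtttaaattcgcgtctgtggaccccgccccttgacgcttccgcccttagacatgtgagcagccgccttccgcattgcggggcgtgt
Mrpl12: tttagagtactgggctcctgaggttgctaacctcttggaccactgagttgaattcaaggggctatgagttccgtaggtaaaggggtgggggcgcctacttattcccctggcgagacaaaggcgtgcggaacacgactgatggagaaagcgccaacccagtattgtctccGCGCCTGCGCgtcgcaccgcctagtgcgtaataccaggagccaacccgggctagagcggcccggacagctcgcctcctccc
Mrpl47: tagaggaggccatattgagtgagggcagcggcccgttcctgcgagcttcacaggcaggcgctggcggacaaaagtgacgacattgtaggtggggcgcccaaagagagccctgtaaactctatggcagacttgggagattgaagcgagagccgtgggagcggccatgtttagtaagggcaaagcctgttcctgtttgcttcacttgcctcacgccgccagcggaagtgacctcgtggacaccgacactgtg
Mrps22: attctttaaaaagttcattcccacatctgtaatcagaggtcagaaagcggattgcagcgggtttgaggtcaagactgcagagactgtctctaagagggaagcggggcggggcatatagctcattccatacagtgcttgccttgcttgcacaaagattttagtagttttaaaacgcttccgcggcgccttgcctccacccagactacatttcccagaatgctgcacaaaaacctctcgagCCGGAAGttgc
Mrpl17: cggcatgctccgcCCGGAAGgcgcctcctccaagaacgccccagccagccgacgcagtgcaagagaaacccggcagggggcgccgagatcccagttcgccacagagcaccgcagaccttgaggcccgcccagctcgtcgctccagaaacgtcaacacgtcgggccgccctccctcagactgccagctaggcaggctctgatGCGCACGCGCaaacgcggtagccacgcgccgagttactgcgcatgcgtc
Mrpl24: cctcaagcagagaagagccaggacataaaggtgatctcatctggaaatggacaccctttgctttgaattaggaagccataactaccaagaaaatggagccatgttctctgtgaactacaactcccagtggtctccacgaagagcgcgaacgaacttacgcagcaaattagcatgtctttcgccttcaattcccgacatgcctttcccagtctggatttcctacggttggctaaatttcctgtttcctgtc

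Mrpl12 held an NRF1 motif starting 81 bases before the start, Mrpl17 an NRF1 motif at 49 and an ETS motif at 237 bases before it, and Mrps22 an ETS motif 11 bases before it. Mrps18b, Mrpl47 and Mrpl24 held neither. Of the 12 members with a fall of 1 or more (log2) at 24 h in WT cells, 11 had a promoter entry. Of these, 3 held either motif (Mrpl12, Mrpl17 and Mrps22). Either motif was no rarer among all 65 members with an entry, of which 9 held the NRF1 motif and 16 the ETS motif. The table of promoters had 71 entries for 65 of the 74 members, and none for Mrpl4, Mrpl13, Mrpl15, Mrpl19, Mrpl38, Mrpl54, Mrps28, Mrps34 and Mrps35. On both strands, the NRF1 motif lay in 12.7% of the members' promoters (9 members), in 9.16% of 7858 promoters of genes tested and in 3.74% of all 32851 promoters. The ETS motif lay in 22.5% (16 members), 14.9% and 6.91% of the same promoters. CACGTG, the E-box that Myc binds, lay in 9.86% (5 members), 8.67% and 6.02%, and TGACGTCA, the cAMP response element, in 2.82% (Mrpl16 and Mrpl49), 2.52% and 1.55%. No motif contains another, the E-box and the cAMP response element share the letters ACGT, and a match here is a description of the sequence.

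The module as a whole lost signal with treatment in both lines. The mean log2 intensity over the 74 members in D- cells was 10.465, 10.477, 10.421 and 10.348 on the untreated arrays, 10.376, 10.165 and 10.224 at 2 h, 10.242, 9.964 and 9.958 at 6 h, and 10.364, 9.86 and 9.939 at 24 h. In WT cells it was 10.633, 10.66, 10.29 and 10.328 on the untreated arrays, 10.334, 10.073 and 10.12 at 2 h, 10.272, 9.846 and 9.923 at 6 h, and 10.112, 9.694 and 9.839 at 24 h. The 6 h and 24 h arrays overlapped in both lines, and the mean change between them was -0.001 in D- cells and -0.13 in WT cells (log2, 24 h minus 6 h), with pooled SDs between arrays of 0.223 and 0.219. Leaving out 1 array moved it to between -0.155 and 0.097 in D- cells and, in WT cells, to -0.003 without WT 6 h replicate 1, -0.038 without WT 24 h replicate 2 and -0.247 without WT 24 h replicate 1. At 6 h in either line and at 24 h in WT cells every treated array lay below every untreated one, while at 24 h in D- cells replicate 1 lay within the untreated range. The first value of each group, and the second of the untreated groups, belong to the smaller cluster and were the highest of their group throughout.

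**Figure D1:**
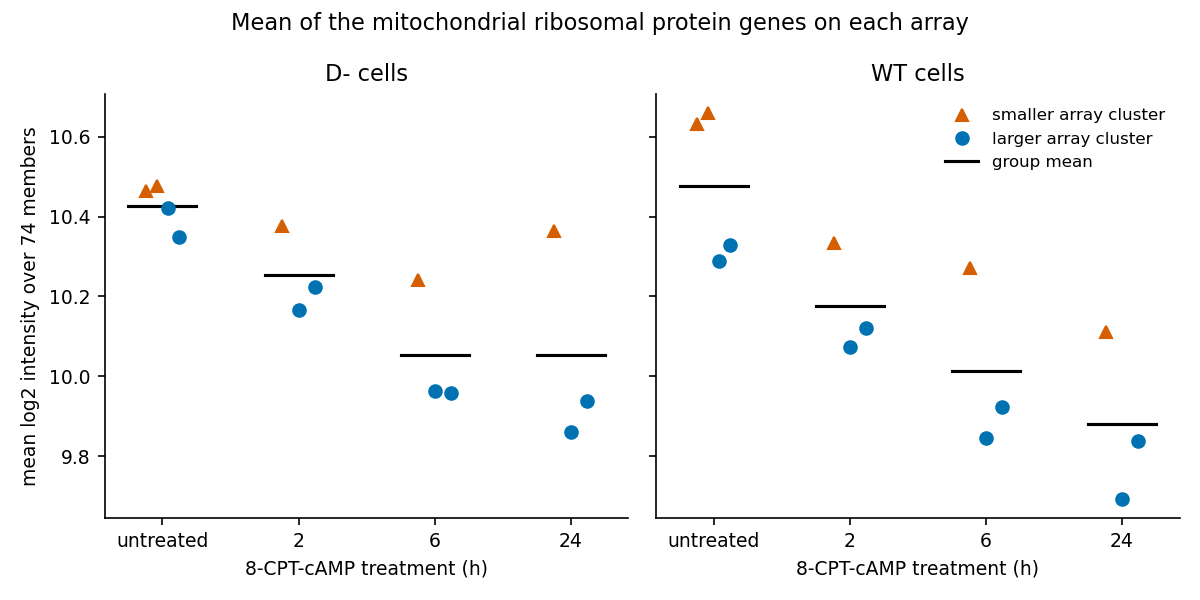
Mean log2 intensity over the 74 mitochondrial ribosomal protein genes on each array (vertical axis) by hours of 8-CPT-cAMP (horizontal axis) in D- cells (left) and WT cells (right); triangles are arrays of the smaller cluster, circles those of the larger cluster and bars group means. Every treated mean lies below the untreated mean of its line, and the triangles lie above the circles in every group.

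The group means were 10.428 ± 0.058 (SD, n = 4), 10.255 ± 0.109, 10.055 ± 0.162 and 10.054 ± 0.271 (SD, n = 3 each) in D- cells, and 10.478 ± 0.196 (SD, n = 4), 10.176 ± 0.139, 10.014 ± 0.227 and 9.882 ± 0.212 (SD, n = 3 each) in WT cells, from untreated to 24 h. The mean change of the 74 members was -0.17 at 2 h, -0.37 at 6 h and -0.37 at 24 h in D- cells, and -0.30 at 2 h, -0.46 at 6 h and -0.60 at 24 h in WT cells (log2, treated minus untreated of the same line). Over all 12724 probe sets tested the median change lay between -0.029 and 0.0053 in these 6 comparisons. Within the larger cluster of arrays the mean changes were -0.19, -0.42 and -0.485 in D- cells and -0.21, -0.42 and -0.54 in WT cells, in order of time. Within the smaller cluster they were -0.094, -0.23 and -0.11 in D- cells and -0.31, -0.38 and -0.54 in WT cells, in the same order, each from 1 treated array. The sign was the same in both clusters at all times, and the 24 h value for D- cells differed most between them.

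After 24 h the transcripts of most of the mitochondrial ribosome fell in WT cells and those of fewer members in D- cells. With limma, fitted to all arrays, 32 of 74 members fell and 1 rose in D- cells at 24 h (adjusted p under 0.05, Benjamini-Hochberg over all probe sets), where 33.4% of all probe sets tested were called, 17.4% as lower. In WT cells 52 members fell and 2 rose, against 52.6% of all probe sets called, 28% as lower. The median change over the members was -0.34 in D- cells and -0.61 in WT cells (log2). A fall of 1 or more on the log2 scale was measured for 1 member in D- cells (Mrpl12) and for 12 in WT cells (Mrpl12, Mrpl17, Mrpl37, Mrpl40, Mrpl42, Mrpl47, Mrps5, Mrps7, Mrps18b, Mrps22, Mrps25 and Mrps28). Every treated array lay below every untreated array for 29 members in D- cells, where 19.6% of probe sets did so, and for 49 members in WT cells, where 27.3% did. All 32 members that fell in D- cells also fell in WT cells, which is 61.5% of the WT list; among all probe sets called lower, 84.1% of the D- list was in the WT list and 52.3% of the WT list in the D- list. The D- count depends on single arrays: it was 12 without D- 24 h replicate 2, 20 without D- 24 h replicate 3 and 47 without D- 24 h replicate 1, counting both directions. The WT count stayed between 44 and 59 whichever array was left out. Within the larger cluster 48 members fell in D- cells and 54 in WT cells. The smaller cluster has 1 treated array a group, and its spread comes from the untreated pairs alone, so its counts are not set against these.

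**Figure D2:**
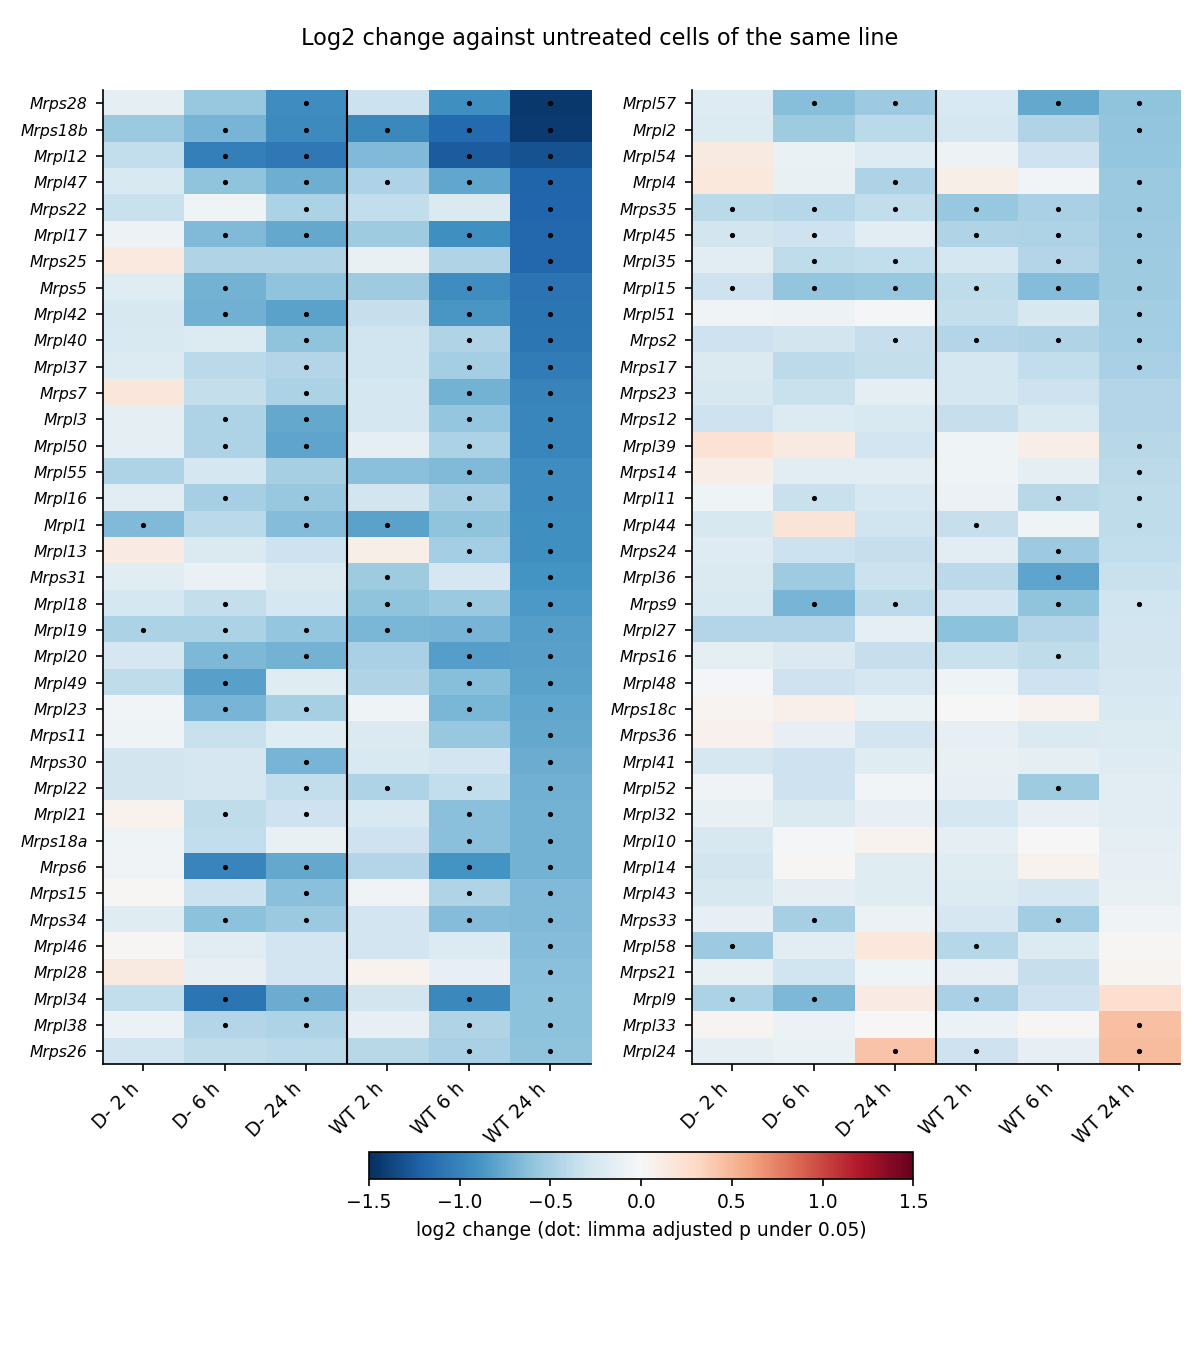
Log2 change against untreated cells of the same line (colour, blue lower and red higher) for the 74 genes in rows, ordered by the WT change at 24 h, with D- cells at 2, 6 and 24 h in the left 3 columns of each panel and WT cells in the right 3; dots mark limma adjusted p under 0.05. Blue cells with dots fill the WT 24 h column of the left panel, and the 2 red cells with dots in the WT 24 h column are Mrpl33 and Mrpl24.

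Transcripts for proteins of both subunits were among those that fell. Of 49 members of the large subunit, which forms peptide bonds, 22 fell and 1 rose at 24 h in D- cells (median -0.32), and 35 fell and 2 rose in WT cells (median -0.61). Of 24 members of the small subunit, which decodes the message, 10 fell in D- cells (median -0.36) and 17 fell in WT cells (median -0.58). Mrps30 and Mrps18a, named as small subunit proteins, are large subunit proteins in ribosome structures and were counted there. Members with a bacterial counterpart fell in 21 of 44 cases in D- cells and 31 of 44 in WT cells, and those specific to mitochondria in 11 of 29 in D- cells and 21 of 29 in WT cells. The shares in WT cells, 70.5% and 72.4% lower, were close for these groups, and those in D- cells lay further apart, with no test of either difference. Mrps36, now known as a subunit of the 2-oxoglutarate dehydrogenase complex and not of the ribosome, did not pass the test in any comparison.

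Among large subunit members with the greatest falls, Mrpl12 belongs to the stalk that recruits translation factors, and its human protein also binds mitochondrial RNA polymerase. Mrpl12 (Entrez Gene 56282) measured 11.13, 10.12 and 10.18 in D- cells at 24 h, against 11.66, 11.66, 11.42 and 11.43 in untreated D- cells. In WT cells it measured 10.77, 9.61 and 10.15 at 24 h, against 11.78, 11.85, 11.15 and 11.16 in untreated cells (log2 intensity). The treated arrays lay below all untreated ones in both lines. The log2 change was -1.07 ± 0.31 (SE) in D- cells (limma adjusted p = 0.0103) and -1.30 ± 0.31 in WT cells (0.00117), a 2.1-fold and a 2.47-fold fall. The D- call ended without D- 24 h replicate 2 (adjusted p = 0.0698) or replicate 3 (0.0591).

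Mrpl47, which sits near the exit of the peptide tunnel, and Mrpl17, which has a bacterial counterpart, also lay lower. Mrpl47 (Entrez Gene 74600) measured 10.54, 9.79 and 10.22 in D- cells at 24 h, against 10.82, 10.86, 11.1 and 10.88 in untreated D- cells, a change of -0.73 ± 0.16 (limma adjusted p = 0.00116). For WT cells the values were 9.88, 9.27 and 9.65 at 24 h, against 11.01, 10.97, 10.58 and 10.66 in untreated WT cells, a change of -1.21 ± 0.16 (1.65e-06). Neither pair of groups overlapped. Mrpl17 (Entrez Gene 27397) changed by -0.77 ± 0.25 in D- cells (limma adjusted p = 0.021) and by -1.18 ± 0.25 in WT cells (0.000418). The D- call ended when D- 24 h replicate 2 (0.132) or replicate 3 (0.111) or untreated D- replicate 1 (0.0523) was left out. Mrpl42, a protein specific to mitochondria, fell by 0.80 ± 0.13 in D- cells (adjusted p = 8.09e-05) and by 1.10 ± 0.13 in WT cells (5.32e-07).

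The greatest falls of the module in WT cells at 24 h were in the small subunit. Mrps28 (Entrez Gene 66230), which has a bacterial counterpart, measured 9.67, 8.61 and 8.75 in D- cells at 24 h, against 10.03, 10.21, 9.92 and 9.62 in untreated D- cells. These groups overlapped by replicate 1, and the change was -0.93 ± 0.28 (limma adjusted p = 0.0139, and 0.1 or 0.0722 without D- 24 h replicate 2 or 3, which ended the call). WT cells measured 9.17, 7.93 and 8.35 at 24 h, against 10.18, 10.41, 9.5 and 9.66 in untreated WT cells. With no overlap, the change there was -1.45 ± 0.28 (0.00017), a 2.74-fold fall.

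Mrps18b (Entrez Gene 66973), a small subunit protein specific to mitochondria, was lower from the first time on, with a call at 2 h in WT cells only. It measured 10.26, 9.13 and 9.33 in D- cells at 24 h, against 10.59, 10.61, 10.46 and 10.45 in untreated D- cells. The WT arrays read 9.5, 8.47 and 8.89 at 24 h, against 10.57, 10.57, 10.16 and 10.23 in untreated WT cells. The changes were -0.96 ± 0.27 in D- cells (limma adjusted p = 0.0074, and 0.0701 without D- 24 h replicate 2) and -1.43 ± 0.27 in WT cells (9.59e-05). No treated array reached the untreated range in either line. In WT cells Mrps18b already fell by 0.97 ± 0.27 at 2 h, the greatest fall of any member then (0.00899, and 0.0549 without WT 2 h replicate 2). The D- change of -0.55 at 2 h did not pass (limma adjusted p = 0.157), and that of -0.70 at 6 h passed narrowly (0.0494).

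Further members are given at 24 h whether or not they passed. Mrps7, a primary binder of the small ribosomal RNA, changed by -0.48 ± 0.16 in D- cells (limma adjusted p = 0.0276) and by -1.001 ± 0.16 in WT cells (2.27e-05); the D- call ended when any of 5 arrays was left out, with an adjusted p of up to 0.152 without D- 24 h replicate 3. Mrps15, a small subunit protein with a bacterial counterpart, fell by 0.63 ± 0.17 in D- cells (0.00533, and 0.0533 without D- 24 h replicate 2) and by 0.66 ± 0.17 in WT cells (0.00179). Mrps30 fell by 0.70 ± 0.12 in D- cells and by 0.74 ± 0.12 in WT cells. Mrps18a changed by -0.11 ± 0.19 in D- cells (0.716) and by -0.71 ± 0.19 in WT cells (0.00338), with no call on the difference between the lines (0.171). Mrpl11, at the base of the stalk, changed by -0.25 ± 0.12 in D- cells (0.116) and by -0.38 ± 0.12 in WT cells (0.00881, and 0.0707 without WT 24 h replicate 2).

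A few members did not follow the module. Mrpl24, which lies at the rim of the peptide tunnel exit, measured 10.92, 10.72 and 10.95 in D- cells at 24 h, against 10.4, 10.58, 10.43 and 10.36 in untreated D- cells. WT cells gave 11.24, 10.97 and 11.08 at 24 h, against 10.59, 10.84, 10.47 and 10.57. Every 24 h array lay above every untreated array of its line. It rose by 0.42 ± 0.11 in D- cells (limma adjusted p = 0.00448) and by 0.48 ± 0.11 in WT cells (0.000811), after a fall at 2 h in WT cells (-0.31 ± 0.11, 0.0394) that lost its call when any of 5 arrays was left out (up to 0.158, without WT 2 h replicate 2). Mrpl24 was the only member that rose at 24 h in both lines.

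Members whose brightest probe set passed the test in none of the 10 comparisons with untreated cells or between the lines numbered 13. They were Mrpl10, Mrpl14, Mrpl27, Mrpl32, Mrpl41, Mrpl43, Mrpl48, Mrpl54, Mrps12, Mrps18c, Mrps21, Mrps23 and Mrps36. A dimmer probe set of Mrps23 and of Mrpl48 was called lower, however. For Mrps23 it changed at 2 h by -0.54 in D- cells (limma adjusted p = 0.00105) and -0.64 in WT cells (0.000166). At 6 h it passed again (0.0169 in D- and 0.0285 in WT cells). Its 24 h call was in WT cells (0.00262), with none in D- cells (0.416). For Mrpl48 the called 6 h changes were -0.34 in D- cells (0.0143) and -0.36 in WT cells (0.00853). Mrps12, a protein of the decoding centre, changed by -0.23 ± 0.20 in D- cells (limma adjusted p = 0.417) and by -0.44 ± 0.20 in WT cells (0.0708) at 24 h. Mrpl41 changed by -0.18 ± 0.13 (0.315) and -0.20 ± 0.13 (0.221). These misses do not show that the genes were unchanged.

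Falls were called from 2 h on. At 2 h, 7 of 74 members fell in D- cells, where 21.7% of probe sets were called and 12.4% were lower, a share of members (9.46%) no higher than that of all probe sets. In WT cells 15 fell at 2 h, against 24.6% called and 13.1% lower. At 2 and 6 h no member rose in D- cells, where 9.29% and 15.4% of probe sets did, and none rose in WT cells, where 11.6% and 17.6% did (limma); 15 and 41 members in D- cells and 29 and 51 in WT cells had an unadjusted p under 0.05 in either direction. At 6 h, 28 members fell in D- cells (30.4% of probe sets called, 14.9% lower) and 43 in WT cells (36.2% called, 18.6% lower), with median changes of -0.35 and -0.46. Every treated array lay below every untreated array for 20 members at 2 h and 39 at 6 h in D- cells, where 17.6% and 20.2% of probe sets did so, and for 22 at 2 h and 38 at 6 h in WT cells, where 17.2% and 21.3% did. The counts at 6 h were 14 and 16 in D- cells without D- 6 h replicates 2 and 3, and 26 in WT cells without WT 6 h replicate 2. At 2 h in D- cells the count was 3 without D- 2 h replicate 2 and 4 without untreated D- replicate 1, 2 or 4. Of the 28 members that fell at 6 h in D- cells, 27 fell in WT cells too, 62.8% of the WT list; Mrpl9 was the exception. With the array cluster as a block the counts were 13 at 2 h and 47 at 6 h in D- cells and 29 at 2 h in WT cells.

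Members differed in when they were lowest. In D- cells the group mean was lowest at 2 h for 7 members, at 6 h for 33 and at 24 h for 34. The WT group mean was lowest at 2 h for 9 members, at 6 h for 16 and at 24 h for 49. No member had its lowest mean in untreated cells of either line. From 6 to 24 h, 4 members rose and 4 fell further in D- cells (14.9% of probe sets called, 7.2% higher and 7.72% lower), and 4 rose and 14 fell further in WT cells (30.9% called, 14.2% higher and 16.7% lower). Every 24 h array lay below every 6 h array for 5 members in D- cells, where 16.7% of probe sets did so, and for 14 in WT cells, where 19.3% did. In WT cells the share of members that fell between 6 and 24 h thus lay near that of all probe sets. The share that rose lay below it. Both directions together, those counts were 4 in D- cells without D- 6 h replicate 1, 2 or 3, 5 without D- 24 h replicate 2 or 3, and 11 in WT cells without WT 24 h replicate 2. With the array cluster as a block they were 14 in D- and 32 in WT cells.

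Falls at all 3 times were called for Mrpl15, Mrpl19 and Mrps35 in D- cells and for these and 7 others in WT cells. Mrpl15, which has a bacterial counterpart, measured 11.61, 11.81, 11.79 and 11.78 in untreated D- cells, 11.37, 11.45 and 11.49 at 2 h, 11.25, 11.04 and 11.18 at 6 h and 11.25, 11.04 and 11.24 at 24 h. Each treated group lay below the untreated arrays. Its change in D- cells was -0.31 ± 0.085 at 2 h (limma adjusted p = 0.0109, and 0.0556 without D- 2 h replicate 1), -0.59 ± 0.085 at 6 h (1.74e-05) and -0.57 ± 0.085 at 24 h (2.01e-05). The WT changes were -0.38, -0.65 and -0.53 in the same order. Mrpl1 fell most at 2 h in D- cells (-0.66 ± 0.16, adjusted p = 0.00476) and by 0.81 ± 0.16 in WT cells (0.000783).

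Mrpl34 and Mrps6, both with bacterial counterparts, were lowest at 6 h. In D- cells Mrpl34 (Entrez Gene 94065) measured 9.98, 10.07, 9.96 and 9.74 untreated, 9.76, 9.4 and 9.56 at 2 h, 9.17, 8.66 and 8.72 at 6 h and 9.68, 8.92 and 8.99 at 24 h. In WT cells it measured 10.23, 10.27, 9.77 and 9.87 untreated, 10.08, 9.65 and 9.54 at 2 h, 9.41, 8.77 and 9.03 at 6 h and 9.51, 9.3 and 9.45 at 24 h. Its 6 h and 24 h arrays lay below the untreated arrays in both lines. The 6 h change was -1.09 ± 0.19 in D- cells (limma adjusted p = 0.000156) and -0.97 ± 0.19 in WT cells (0.000411). The step from 6 to 24 h, 0.35 ± 0.20 in either line, did not pass (0.291 in D- cells and 0.214 in WT cells). Mrps6 fell at 6 h by 0.99 ± 0.22 in D- cells and by 0.90 ± 0.22 in WT cells.

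Mrpl9 and Mrpl58 fell early and were not called at 24 h. Mrpl58, a peptidyl-tRNA hydrolase known to rescue stalled mitochondrial ribosomes, measured 10.44, 10.27 and 10.18 at 2 h in D- cells, against 10.91, 10.92, 10.87 and 10.65 in untreated D- cells. At 24 h it measured 11.1, 10.97 and 10.92, at or above the highest untreated value. Its 2 h change was -0.54 ± 0.12 in D- cells (limma adjusted p = 0.00192) and -0.43 ± 0.12 in WT cells (0.0104, and 0.0779 without WT 2 h replicate 3). The 24 h change was 0.16 ± 0.12 in D- cells (0.338) and 0.022 ± 0.12 in WT cells (0.904). Mrpl9 (Entrez Gene 78523) measured 8.89, 8.82 and 9.15 at 6 h in D- cells, against 9.54, 9.68, 9.45 and 9.82 in untreated D- cells, and 9.7, 9.72 and 9.82 at 24 h. Its change between 6 and 24 h was 0.79 ± 0.18 in D- cells (0.0039) and 0.56 ± 0.18 in WT cells (0.02). The WT call ended when any of 4 arrays of WT 6 h or WT 24 h was left out (up to 0.0935, without WT 6 h replicate 2).

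**Figure D3:**
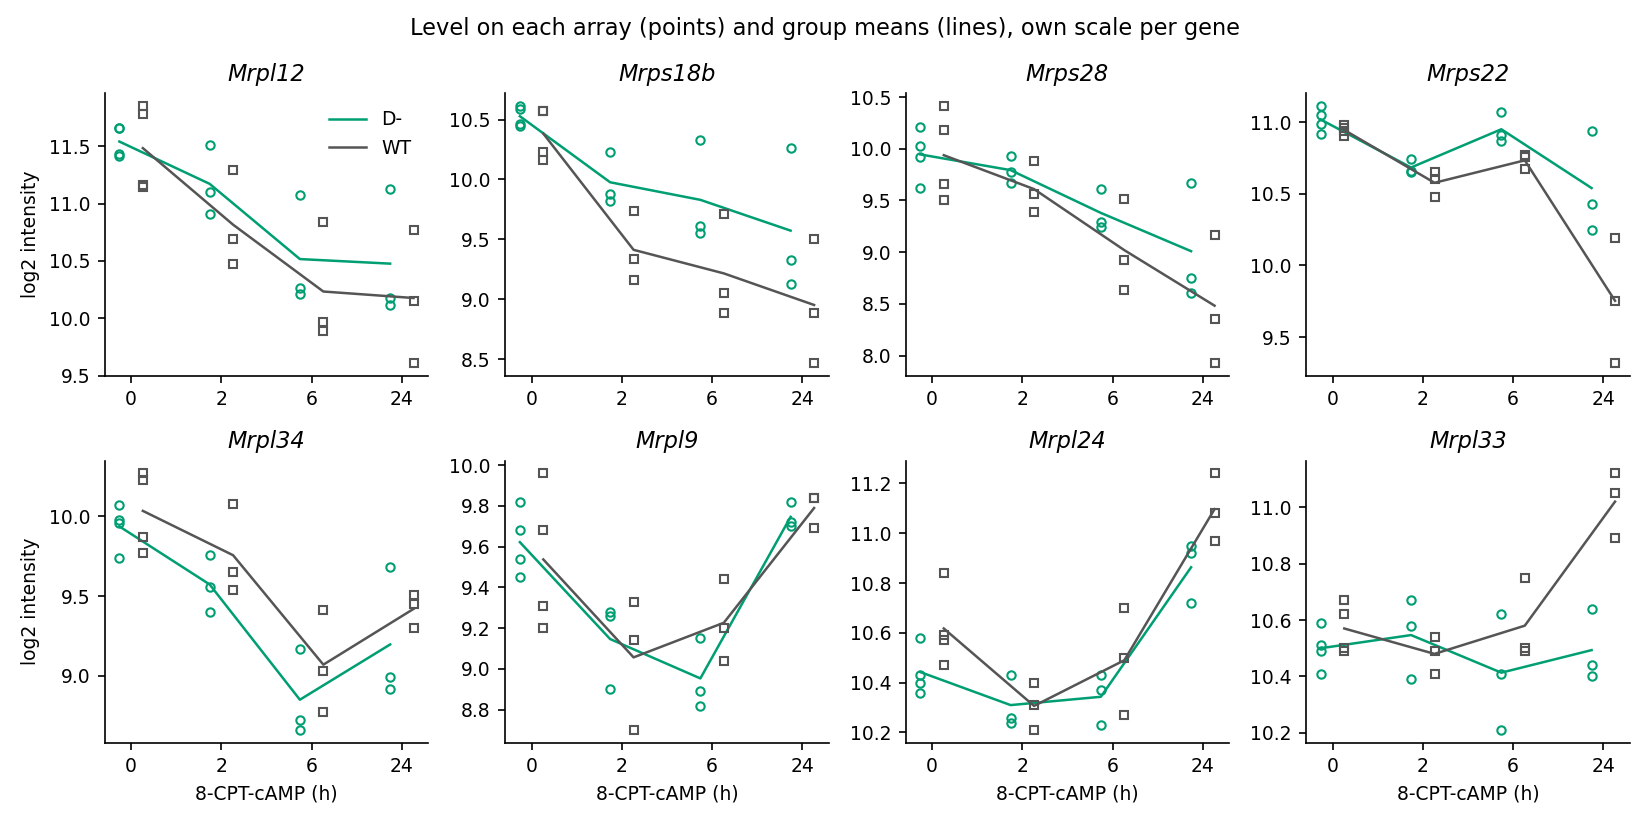
Log2 intensity (vertical axis, own scale per gene) of 8 members against hours of 8-CPT-cAMP (horizontal axis, evenly spaced), with D- arrays as green circles, WT arrays as grey squares and lines through the group means. Mrpl12, Mrps18b and Mrps28 step down, Mrpl34 is lowest at 6 h, Mrpl9 returns by 24 h, Mrpl24 is highest at 24 h in both lines and Mrpl33 in WT cells.

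Untreated cells of the lines were compared first. No member passed the test between untreated D- and untreated WT cells, against 4.53% of all probe sets (1.79% higher and 2.74% lower in D- cells), and 1 member had an unadjusted p under 0.05 (limma). Every D- array lay below every WT array for 4 members, where 5.94% of probe sets did so. The mean over the members differed by -0.05 (log2, D- minus WT), by -0.18 within the smaller cluster and by 0.075 within the larger one. With the cluster as a block 1 member was called, lower in D- cells, and within the larger cluster 3 were, higher in D- cells. The difference in response, D- minus WT, passed for no member at 2 h (0.212% of probe sets called, 0.0393% positive and 0.173% negative) or 6 h (0.519% called, 0.141% positive and 0.377% negative), with an unadjusted p under 0.05 for 1 and 0 members. At 24 h it passed for 4 members, 3 with a positive and 1 with a negative value, against 11.8% of probe sets called, 7.1% positive and 4.69% negative. The members' share, 5.41%, lay below that of all probe sets. The count was 14 with the array cluster as a block and 0 when the fit held only the groups compared. The mean difference of the module's change at 24 h was 0.22, with 0.058 within the larger cluster and 0.43 within the smaller one. The part of the cluster in that difference was not tested. No member passed the 24 h difference without WT 24 h replicate 2, and 8 did without WT 24 h replicate 1, 7 without D- 24 h replicate 2, 2 without D- 24 h replicate 1, untreated D- replicate 1 or 2 or untreated WT replicate 2, and 1 without untreated WT replicate 1 or WT 24 h replicate 3.

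**Figure D4:**
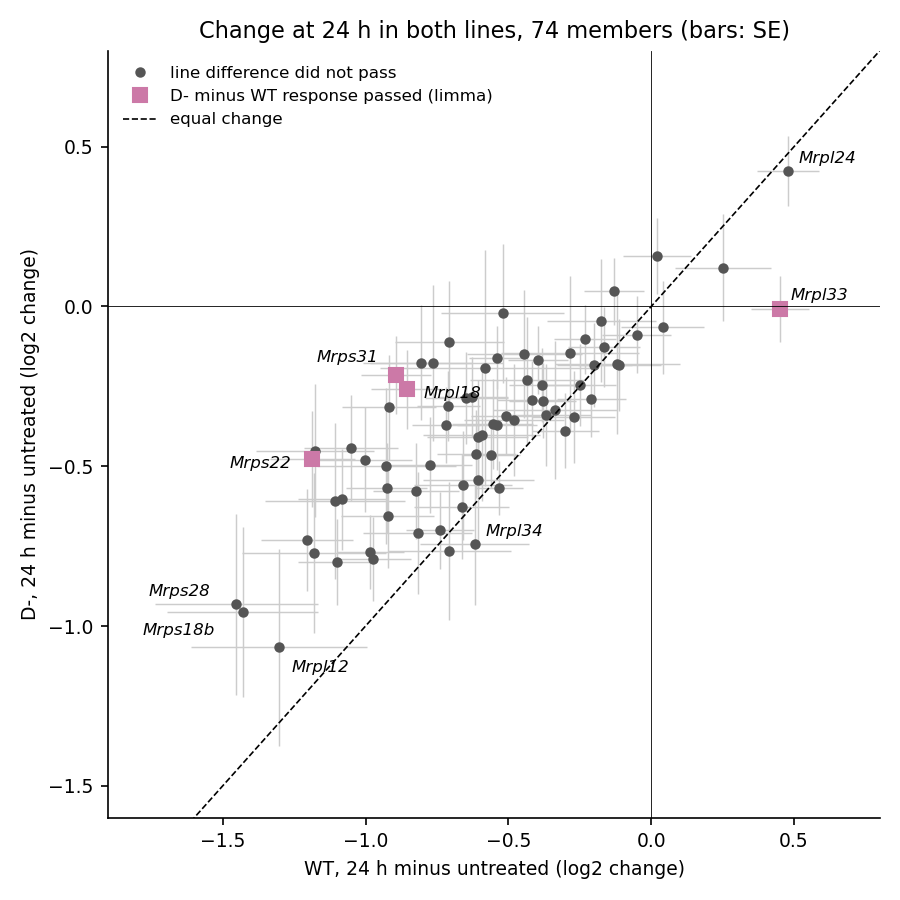
Log2 change at 24 h in D- cells (vertical axis) against WT cells (horizontal axis) for the 74 genes, with SE bars, the line of equal change dashed, and squares for the 4 genes whose difference between the lines passed. Most points lie above the line of equal change, with smaller falls in D- cells, and Mrpl33 lies below it.

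Mrps22, a small subunit protein specific to mitochondria whose loss in humans causes a mitochondrial translation disorder, showed the greatest called difference. It measured 10.94, 10.25 and 10.43 in D- cells at 24 h, against 10.99, 10.92, 11.11 and 11.05 in untreated D- cells. WT cells gave 10.19, 9.32 and 9.75 at 24 h, against 10.96, 10.98, 10.9 and 10.94. The WT groups stood apart, whereas D- replicate 1 lay within the untreated range. Its change was -0.48 ± 0.15 in D- cells (limma adjusted p = 0.0167, and 0.143 without D- 24 h replicate 2 or 0.0759 without replicate 3) and -1.19 ± 0.15 in WT cells (8.95e-07). The difference was 0.71 ± 0.21 (0.0311), 0.64 within the larger cluster (0.0323), 0.85 without D- 24 h replicate 2, and 0.49 without WT 24 h replicate 2 (0.128), which ended the call, as did leaving out any of 6 other arrays. Between 6 and 24 h in WT cells Mrps22 fell by 0.98 ± 0.16 (7.62e-05).

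Mrps31, a small subunit protein specific to mitochondria, measured 9.32, 9.01 and 9.0 in D- cells at 24 h, against 9.24, 9.28, 9.36 and 9.42 in untreated D- cells, groups that overlapped. In WT cells it measured 8.85, 8.39 and 8.66 at 24 h, against 9.81, 9.52, 9.5 and 9.29, with no overlap. The changes were -0.21 ± 0.12 in D- cells (limma adjusted p = 0.196) and -0.89 ± 0.12 in WT cells (2.5e-06), and the difference was 0.68 ± 0.17 (0.0115). It was 0.49 within the larger cluster (0.0581) and 0.56 without WT 24 h replicate 2 (0.0525), the array of 14 whose absence ended the call.

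Mrpl18, a large subunit protein whose human form takes part in bringing 5S ribosomal RNA to mitochondria, measured 12.82, 12.35 and 12.52 in D- cells at 24 h, against 12.92, 12.95, 12.78 and 12.65 in untreated D- cells. WT cells gave 12.07, 11.78 and 11.94 at 24 h, against 12.88, 12.94, 12.63 and 12.68. The changes were -0.26 ± 0.12 in D- cells (limma adjusted p = 0.117) and -0.86 ± 0.12 in WT cells (5.05e-06), and the difference was 0.60 ± 0.18 (0.0274). It was 0.52 within the larger cluster (0.0669), and the call ended when any of 6 of 14 arrays was left out (up to 0.102, without D- 24 h replicate 1).

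Mrpl33, a large subunit protein with a bacterial counterpart, was the member with the opposite difference. It measured 10.64, 10.44 and 10.4 in D- cells at 24 h, against 10.49, 10.59, 10.51 and 10.41 in untreated D- cells. In WT cells it measured 10.89, 11.12 and 11.05 at 24 h, against 10.62, 10.67, 10.49 and 10.5, so that it rose in WT cells (0.45 ± 0.10, limma adjusted p = 0.000855) and its D- groups overlapped (-0.007 ± 0.10, 0.974). The difference was -0.46 ± 0.15 (0.044), -0.63 within the larger cluster (0.0185) and -0.15 within the smaller one (0.669). It ended when any of 10 of 14 arrays was left out (up to 0.132, without WT 24 h replicate 2) and with the mean of both probe sets (0.18), the other of which was below the filter.

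Of the members, 25 had more than 1 probe set that passed the filter. Among 19 of these called at 24 h in WT cells, the probe sets of 16 had the same sign, and those of Mrpl11, Mrpl21 and Mrpl51 differed. For Mrpl11 the brightest probe set changed by -0.38 and a dim one (mean log2 5.08) by 0.22 (limma adjusted p = 0.205); for Mrpl21 they changed by -0.71 and 0.007, and for Mrpl51 by -0.52 and 0.097. In the other comparisons with untreated cells all called members agreed in sign. Probe sets ending in x_at or s_at, such as those of Mrpl11, Mrpl15, Mrpl44 and Mrps12, can also bind other transcripts.

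Some other genes of mitochondrial translation were also called lower at 24 h. Over all probe sets tested, 17.4% were called lower and 16% higher in D- cells at 24 h. In WT cells at 24 h 28% were called lower and 24.6% higher. These shares apply beside the counts of every list below, and no list was tested against them. Of 4 mitochondrial ribosome proteins without an Mrp symbol, 1 fell in D- cells and 4 in WT cells at 24 h. Dap3, a GTP-binding protein of the small subunit first known from cell death, changed by -0.19 ± 0.10 in D- cells and by -0.98 ± 0.10 in WT cells, and the difference of 0.79 ± 0.14 passed (limma). Ptcd3 fell by 1.03 ± 0.13 in D- cells and by 1.45 ± 0.13 in WT cells, and Gadd45gip1 changed by -0.66 ± 0.29 and -1.24 ± 0.29, with a call in WT cells. Of 8 translation factors 4 fell and 1 rose in each line: the elongation factor Tufm fell by 0.44 ± 0.16 in D- cells and by 0.90 ± 0.16 in WT cells, Gfm1 by 0.95 ± 0.15 and 1.23 ± 0.15, and Lrpprc, which stabilises mitochondrial mRNA, by 0.75 ± 0.12 and 0.98 ± 0.12. Of 8 mitochondrial aminoacyl-tRNA synthetases, 2 fell in D- cells, and 5 fell and 1 rose in WT cells. The enzymes that charge tRNA with proline (Pars2), serine (Sars2) and threonine (Tars2) changed by 0.031 ± 0.18, -0.37 ± 0.27 and -0.54 ± 0.12 in D- cells, where Tars2 alone passed, and by -1.09 ± 0.18, -1.11 ± 0.27 and -0.87 ± 0.12 in WT cells, where all passed (limma). The difference between the lines passed for Pars2 (1.12 ± 0.25). In WT cells at 24 h Pars2 averaged 5.36, close to the filter level of log2 5, and Sars2 had an SD of 0.93 between arrays.

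Of 23 genes for ribosome assembly and mitochondrial RNA processing, 8 fell and 2 rose in D- cells and 13 fell and 1 rose in WT cells. Nsun4, an RNA methyltransferase that acts in assembly, averaged 8.8 in D- cells at 24 h, against 7.1 in untreated D- cells, and 9.3 in WT cells at 24 h, against 7.1 in untreated WT cells. It rose by 1.68 ± 0.21 in D- cells and by 2.16 ± 0.21 in WT cells at 24 h, and was already up by 2.11 and 2.17 at 2 h (limma). Pnpt1, a mitochondrial exoribonuclease, fell by 0.46 ± 0.12 in D- cells and by 1.40 ± 0.12 in WT cells, with a called difference of 0.94 ± 0.17. Tfb1m, which methylates the small ribosomal RNA, changed by -0.46 ± 0.23 in D- cells and by -1.41 ± 0.23 in WT cells, called in WT cells. Of 9 genes for mitochondrial DNA transcription and maintenance, 4 fell in D- cells, and 6 fell and 1 rose in WT cells; Tfam, which packages that DNA, fell by 0.42 ± 0.14 in D- cells and by 1.10 ± 0.14 in WT cells, with a called difference of 0.68 ± 0.19. Tefm, the mitochondrial transcription elongation factor, fell by 0.77 ± 0.21 in D- cells and by 0.89 ± 0.21 in WT cells at 24 h, and by 1.70 and 1.72 at 2 h. Top1mt, the mitochondrial topoisomerase, averaged 4.3 in D- cells at 24 h, against 5.22 in untreated D- cells, and 4.68 in WT cells at 24 h, against 5.45 in untreated WT cells, so that both 24 h means were below the filter level; it was called lower in both lines.

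Of 8 regulators of nuclear mitochondrial genes tested, 4 fell in D- cells and 6 in WT cells at 24 h. Myc averaged 9.0 in D- cells at 24 h, against 10.5 in untreated D- cells, and 8.3 in WT cells at 24 h, against 10.4 in untreated WT cells. Its change was -3.16 ± 0.30 at 2 h, -1.65 ± 0.30 at 6 h and -1.52 ± 0.30 at 24 h in D- cells, and -2.49, -2.11 and -2.16 in WT cells (limma, all called). Pprc1 and Ppargc1b, coactivators of the Pgc1 family, were lower in both lines at 24 h, Pprc1 by -1.21 ± 0.22 in D- cells and -1.82 ± 0.22 in WT cells, and Ppargc1b by -0.74 ± 0.25 and -1.15 ± 0.25. Nrf1, named with the other regulators after its values were seen, changed by -0.34 ± 0.19 in D- cells and by -0.83 ± 0.19 in WT cells at 24 h, with a call in WT cells, where it had risen by 0.62 ± 0.19 at 2 h.

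Sets of other mitochondrial and ribosomal genes differed in how many fell at 24 h, where 17.4% of all probe sets tested were called lower in D- cells and 28% in WT cells. The shares called higher were 16% and 24.6%. Of 19 genes for protein import and chaperones of mitochondria, 15 fell and 1 rose in D- cells (median -0.67), and 16 fell and 1 rose in WT cells (median -0.77). Tomm40, the channel of the outer membrane, fell by 1.34 ± 0.24 in D- cells and by 1.73 ± 0.24 in WT cells, and Timm8a1 and Timm9, small carriers between the membranes, fell by 1.19 and 1.16 in D- cells and by 1.98 and 1.71 in WT cells. Of 75 nuclear-encoded respiratory chain subunits tested, 16 fell and 5 rose in D- cells (median -0.12), and 29 fell and 9 rose in WT cells (median -0.14). Of 44 cytosolic ribosomal proteins tested, 4 fell and 2 rose in D- cells (median -0.007), and 4 fell and 5 rose in WT cells (median 0.092). The members' own medians, -0.34 and -0.61, lie between those of the import list and the respiratory chain list, and no test of the difference between lists was made.

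**Figure D5:**
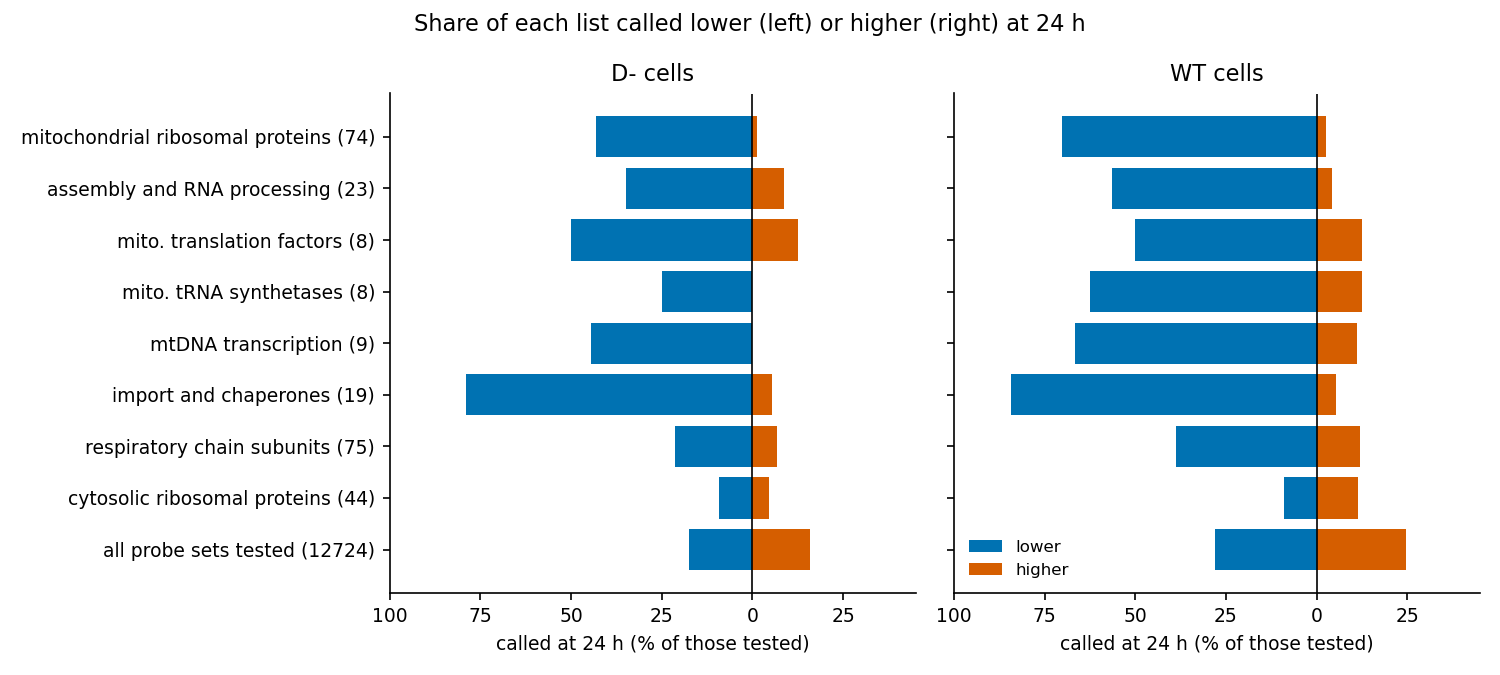
Share of the genes tested in each list (number in parentheses) that were called lower (blue, left of 0) or higher (orange, right of 0) at 24 h (horizontal axis, %), in D- cells (left panel) and WT cells (right panel), with all probe sets tested in the lowest row. The bars for the mitochondrial ribosomal proteins reach 43.2% lower in D- cells and 70.3% lower in WT cells, against 17.4% and 28% of all probe sets.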

How the data were processed

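RNA of 26 samples was measured on Affymetrix arrays. The deposited values are linear intensities that the authors made with GCRMA, per the submitters' processing notes, which corrects background and equalises the arrays. The GCRMA version is not given in the sources used here, nor whether D- and WT arrays were processed together. Of the probe sets other than controls, 20380 had 1 gene symbol, 691 several and 1555 none.

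Intensities were log2-transformed and 12724 probe sets at log2 5 (intensity 32) or more on at least 3 arrays were tested with limma 3.58.1 (R 4.3.3): 8 group means over all arrays, 18 residual degrees of freedom, moderated spread, Benjamini-Hochberg adjustment over all probe sets tested, and calls at an adjusted p under 0.05. The brightest probe set stood for a gene. The members and gene lists were chosen with earlier results of these data known, so no p is given for a score over them. The text names the 6 called members with the highest and the 6 with the lowest change per comparison where they carry a result, members never called, 9 members whatever their result, members whose probe sets disagree, and the 3 called genes of each partner list with the largest change at 24 h, with Tfam, Tufm, Dap3, Lrpprc and Myc.

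Treated WT samples are titled as untreated with a time, and were grouped by the other label fields, which give the treatment. The number of arrays limits the precision. On simulated data for WT cells at 24 h (12724 probe sets), 25.4% of changes of 0.5, 76.1% of 1 and 98.5% of 2 (log2) were recovered. The simulation changed only a small share of the probe sets and drew noise independently for each. In the real data 52.6% were called in that comparison, and 38.8% of the variance within groups lay on the first axis. The simulated rates therefore do not measure recovery in the real comparison. Alternatives covered the model, array weights, normalization, the filter, probe sets, blocks, clusters and each array left out. The comparison of 24 h with 6 h and the use of the smaller cluster alone were added after the data were seen.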

Additional observations from a re-analysis of the deposited data

Results flagged for a closer look

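In 118 groups of 4 untreated arrays, 5 had a lone value whose gap to its nearest neighbour, as a share of the group's range, passed Dixon's critical value for 4 samples: Mrpl15 (0.83), Mrps16 (0.853), Mrps18c (0.898) and Mrps7 (0.858) in untreated D- cells, and Mrps36 (0.967) in untreated WT cells. Chance alone gives about 1 such group in 20.

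The response at 24 h differed between D- and WT cells for 4 members by limma's test of the difference itself (log2, D- minus WT): Mrps22 by 0.71, Mrps31 by 0.68, Mrpl18 by 0.60 and Mrpl33 by -0.46. Each of these calls ended when at least 1 array was left out.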

How the results depend on the processing

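Single results were followed under the alternatives only for members picked by the naming rules given above, and no direction reversed among these. The 262 results followed were called ones and, for members given whatever their result, uncalled ones too. Of 5165 values for them, 4597 kept their side of the threshold, 502 lost the call and 66 gained it. The count of members called moved by over 1.5 times as follows, with the cause not tested. Array weights gave 12 at 2 h, 50 at 6 h and 51 at 24 h in D- cells, 24 at 2 h in WT cells, 7 for the 24 h difference between lines, and 13 in D- and 35 in WT cells for 24 h against 6 h. Median centring gave 2 at 2 h in D- cells and 5 for D- 24 h against 6 h. Only the groups compared gave 0 for the 24 h difference, 3 for D- and 6 for WT 24 h against 6 h. The labels give no meaning to the replicate number. Deviations from the group means correlated at a median of 0.266 over 85 same-numbered pairs (-0.468 to 0.655) and -0.205 over 210 other-numbered pairs (-0.586 to 0.516), so same-numbered arrays were more alike on the whole but not in every pair, and the array clusters follow the numbers in part. The replicate block gave 17 at 2 h and 48 at 6 h in D- cells, 39 at 2 h in WT cells and 10 for the 24 h difference. The cluster block gave 13 at 2 h and 47 at 6 h in D- cells, 29 at 2 h in WT cells, 1 between untreated lines, 14 for the 24 h difference, and 14 in D- and 32 in WT cells for 24 h against 6 h. The larger cluster alone gave 14 at 2 h in D- cells and 3 between untreated lines. The smaller cluster alone, with 2 residual degrees of freedom, gave 0 at 2 h, 2 at 6 h and 0 at 24 h in D- cells, 1 at 2 h and 8 at 6 h in WT cells, and 0 for the 24 h difference and for 24 h against 6 h in either line; there the mean change was -0.23 at 6 h and -0.11 at 24 h in D- cells and the 24 h difference 0.43.

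Leaving out each array in turn gave 3 to 5 calls at 2 h, 14 to 32 at 6 h and 12 to 47 at 24 h in D- cells, 10 to 19, 26 to 49 and 44 to 59 at the same times in WT cells, 0 to 8 for the 24 h difference, and 4 to 8 in D- and 11 to 23 in WT cells for 24 h against 6 h.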
